A study of Mus musculus with 2 samples.

Results

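The Hox genes were read from RNA sequencing of C2C12, an immortalised mouse myoblast line that descends from adult thigh muscle. Members were chosen by symbol alone, as Hox followed by a, b, c or d and a number, which gave 39 of the 21829 genes in the deposited table: 11 of the HoxA cluster, 10 of HoxB, 9 of HoxC and 9 of HoxD. There were 2 libraries, 1 from unedited cells (WT) and 1 from cells labelled GNE KO, hereafter the KO library. Both lines grew in DMEM with serum, and the only labelled difference is the genotype. According to the methods, the KO cells carry a CRISPR–Cas9 indel in exon 2 of Gne and were grown out from isolated single cells, so an effect of Gne and a difference between clones cannot be told apart. With 1 library per line, no difference has a replicate check and no p-value is given.

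Hox genes encode homeodomain transcription factors that give cells their position along the body axis and along the limb. They lie in tandem in 4 clusters on different chromosomes, and genes with the same number in different clusters, the paralogs, descend from 1 ancestral gene. Low numbers sit at the 3′ end of a cluster and are used toward the head, whereas high numbers sit at the 5′ end and are used toward the tail and the end of the limb. Adult cells commonly keep part of the Hox code of the place they came from. Polycomb proteins hold unused clusters silent and Trithorax proteins keep used ones active.

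Values are FPKM, which are scaled to transcript length and sequencing depth, so that levels can be compared between genes. The unit is inferred, as the files do not name it. Differences are log2((KO + 1)/(WT + 1)), where the added 1 shrinks the difference of weakly expressed genes, and were counted where the mean of both libraries reached 1 FPKM. This left 18 of the 39 Hox genes and 10542 genes in all. The column totals were 568410 FPKM for WT and 574144 FPKM for KO, and the median difference over all genes past the filter was 0.0061, with quartiles of -0.21 and 0.23. Gne itself was at 6.67 FPKM in WT and 7.34 FPKM in KO, and because an indel need not lower the amount of RNA, this does not check the label. Read numbers are not known, and low values therefore carry a counting error of unknown size.

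The libraries also differed in markers of the line. Of 9 myoblast markers, 6 passed the filter, and their list summed to 246 FPKM in WT and 54.2 FPKM in KO. Myod1, the myogenic master regulator, was at 59.97 FPKM in WT and listed at 0 in KO, whereas Myf5, its relative, was at 9.14 and 20.3 FPKM, and Pax7, a satellite cell marker, was listed at 0 in both. The 7 fibroblast markers summed to 606 FPKM in WT and 1461 FPKM in KO. Most of both sums came from the collagens Col1a1, Col1a2 and Col3a1. Pdgfra was at 10.8 and 12.3 FPKM, and Thy1 was listed at 0 in both. Markers of blood summed to 2.85 and 1.06 FPKM, those of endothelium to 0.01 and 0.028 FPKM and those of epithelium to 0.068 and 0.02 FPKM. Ptprc, Cdh5 and Epcam were listed at 0 in both. The neural list summed to 22.3 and 1.02 FPKM, almost all of it Tubb3 and Map2, with Sox2 and Sox10 at 0. The part of these differences in the Hox results was not tested.

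The 4 clusters were used very unequally. HoxA summed to 96.5 FPKM in WT and 85.9 FPKM in KO, and HoxC to 99.3 and 89.6 FPKM. HoxB summed to 0.039 FPKM in WT and 5.66 FPKM in KO, and all 9 HoxD genes were listed at 0 in both libraries. Thus both libraries used HoxA and HoxC, and the HoxB values of the KO library were low, with 2.45 FPKM for its highest gene. Genes of the central and posterior parts made up most of the total, and members numbered 9 to 13 held 77.0% of it in WT and 81.7% in KO. In all, 12 of the 39 Hox genes, or 30.8%, were listed at 0 in both libraries, against 33.7% of all genes. None of 12 housekeeping genes checked was at 0.

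**Figure D1:**
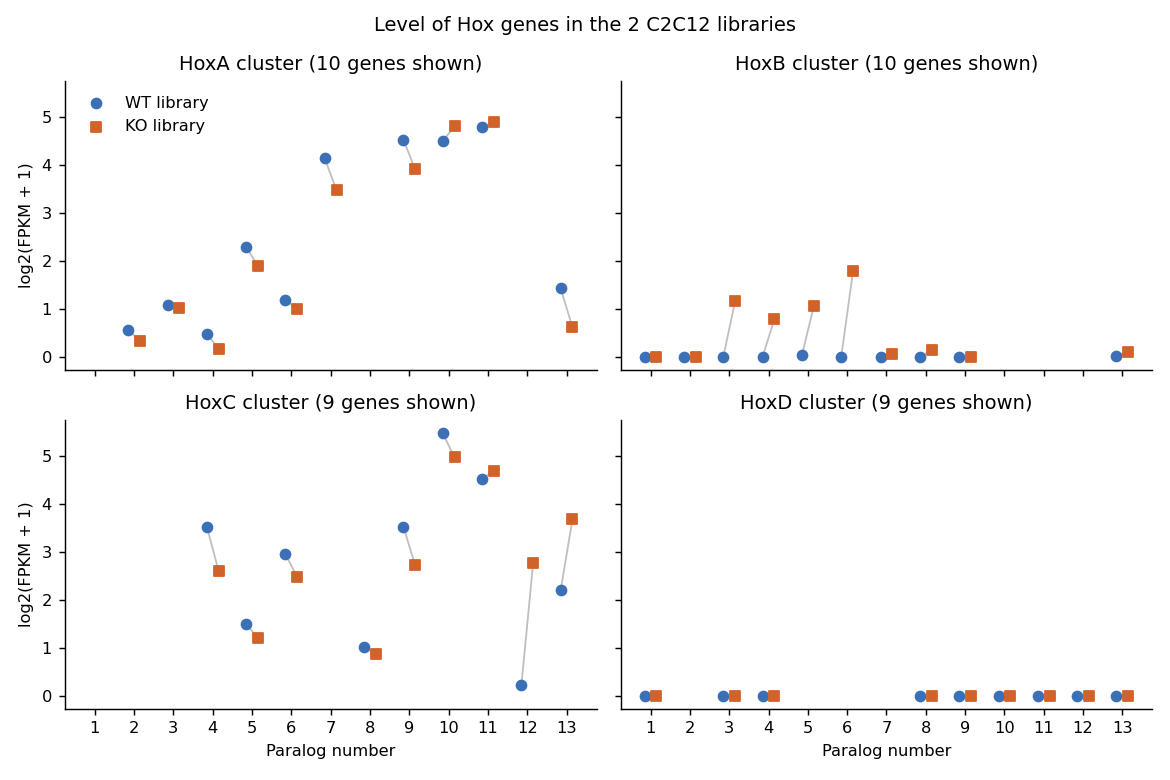
Level of each of 38 Hox genes as log2(FPKM + 1) against its paralog number, in 1 panel per cluster, with circles for the WT library and squares for the KO library, 1 library each, joined by a line. HoxA genes reach their highest levels at numbers 9 to 11 and HoxC genes at 10 and 11, HoxB genes numbered 3 to 6 leave the baseline in KO alone, and every HoxD gene lies at 0.

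Promoter sequences of a few members show what stands before annotated transcript starts of active and unused genes. The sequences of the 250 bases before the transcript start were taken from RefSeq (GRCm38.p6), which held 24 promoters of 22 Hox genes. The promoters of Hoxc4, Hoxb4 and Hoxd4 are given because these paralogs followed 3 different patterns, and that of Hoxa11 because it was the highest HoxA member. That of Hoxc4 precedes a start inside the RefSeq span of the gene, 103018097 to 103036856. Which start was used in these cells is not known. Capitals mark CG dinucleotides, the sites of DNA methylation.
Hoxc4, chr15:103034145-103034394, plus strand, 10.5 FPKM in WT and 5.04 FPKM in KO: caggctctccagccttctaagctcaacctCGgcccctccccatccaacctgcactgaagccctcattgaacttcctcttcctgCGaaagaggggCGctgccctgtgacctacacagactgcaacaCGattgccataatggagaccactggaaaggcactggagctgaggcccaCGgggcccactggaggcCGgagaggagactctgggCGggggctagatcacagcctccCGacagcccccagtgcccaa
Hoxb4, chr11:96318017-96318266, plus strand, listed at 0 in WT and 0.718 FPKM in KO: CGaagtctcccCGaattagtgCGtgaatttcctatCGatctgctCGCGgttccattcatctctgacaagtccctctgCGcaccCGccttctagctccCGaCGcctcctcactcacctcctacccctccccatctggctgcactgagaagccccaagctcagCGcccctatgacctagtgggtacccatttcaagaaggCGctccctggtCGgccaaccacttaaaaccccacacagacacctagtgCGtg
Hoxd4, chr2:74721728-74721977, plus strand, listed at 0 in both: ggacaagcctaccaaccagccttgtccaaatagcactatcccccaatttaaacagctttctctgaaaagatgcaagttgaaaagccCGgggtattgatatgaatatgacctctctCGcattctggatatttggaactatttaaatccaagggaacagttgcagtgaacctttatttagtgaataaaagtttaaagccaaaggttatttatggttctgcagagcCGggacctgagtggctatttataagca
Hoxa11, chr6:52245811-52246060, minus strand, 26.4 FPKM in WT and 28.8 FPKM in KO: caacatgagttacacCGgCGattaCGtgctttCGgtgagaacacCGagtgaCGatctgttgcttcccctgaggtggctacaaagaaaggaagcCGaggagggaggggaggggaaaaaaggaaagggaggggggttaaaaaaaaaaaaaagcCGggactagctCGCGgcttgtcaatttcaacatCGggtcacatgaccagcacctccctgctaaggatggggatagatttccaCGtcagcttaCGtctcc

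The Hoxc4 promoter held 8 CG dinucleotides, that of Hoxb4 14, that of Hoxd4 3 and that of Hoxa11 13. The median was 12.5 over the 24 Hox promoters, against 6 over the 32851 promoters in the table. It was 15.5 for the 10 HoxA promoters, from genes with a value in both libraries, and 12.5 for the 10 HoxD promoters, from genes listed at 0. Short motifs were searched on both strands. CCAAT was present in 14 of the 24 Hox promoters and in 33.8% of all, GGGCGG, the Sp1 site, in 10 and 32.7%, and TATAAA in 4 and 12.4%. TGATNNAT, a form of the site that Pbx and Hox proteins bind together, was present in 4 and in 7.68% of all. None of these motifs contains another. A match is a description of the letters and not of binding.

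On the scale with 1 added, Hoxc12, Hoxc13 and Hoxb6 were more than 2-fold higher in KO, 3 of the 18 Hox genes past the filter. On that scale 0 of the 18 were lower by as much. The same thresholds were passed upward by 2.84% and downward by 3.43% of all 10542 genes. Of the 3, Hoxb6 and Hoxc12 passed the filter through the KO library alone, so for them a difference was built into passing. The count of 3 rests on these settings. It was 1 of 18, Hoxc12, with a pseudocount of 5, and 1 of 10, Hoxc13, with the filter at 5 FPKM. The median difference of the 18 was -0.35, and 12 of the 18 had a lower value in KO, against 49.3% of all genes.

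The 5′ end of HoxC held 2 of the 3 Hox genes more than 2-fold higher in KO. HoxC lies on chromosome 15 from 102921131 to 103036856 (GRCm38.p6), a span of 116 kb with Hoxc13 at its 5′ end. Hoxc13, which is needed for hair and nail formation, was at 3.60 FPKM in WT and 11.7 FPKM in KO, a 3.26-fold ratio and a log2 difference of 1.47. Hoxc12, its neighbour, was at 0.159 FPKM in WT and 5.79 FPKM in KO, a log2 difference of 2.55. Next in line, Hoxc11, a gene of the hindlimb and tail region, was nearly level at 21.8 and 24.6 FPKM, a log2 difference of 0.17. Beyond Hoxc11 all members were lower in KO. Hoxc10, a gene of lumbar and hindlimb identity and the highest Hox gene of the WT library, was at 43.2 and 30.2 FPKM, a log2 difference of -0.50. Hoxc9, a gene of the thoracic region, was at 10.5 FPKM in WT and 5.56 FPKM in KO, a log2 difference of -0.81. Hoxc4, the 3′-most gene of the cluster, had the most negative difference on this scale, from 10.5 FPKM in WT to 5.04 FPKM in KO, a log2 difference of -0.93. Between these, Hoxc6 was at 6.69 and 4.54 FPKM and Hoxc5 at 1.83 and 1.29 FPKM, with log2 differences of -0.47 and -0.30. Hoxc8 missed the filter at 1.02 and 0.817 FPKM. HoxC members therefore lay on both sides of 0, from -0.93 to 2.55, with a median of -0.39 over 8 genes.

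The genes around HoxC were lower in KO as well. The 79 other genes within 5 Mb of the cluster had a median difference of -0.41, with quartiles of -0.61 and -0.23, and no gene among them was higher by 2-fold. Most lay on the Hoxc13 side, as those on the Hoxc4 side reached only 0.38 Mb from the cluster's midpoint. All 5 genes on the list of direct flanks, Smug1, Cbx5, Hnrnpa1, Calcoco1 and Atp5g2, were lower, between -0.50 and -0.28. The listed flanks of HoxA and HoxB past the filter, 4 each, were all lower too. They lay between -0.34 and -0.093 for HoxA and between -0.42 and -0.039 for HoxB. Within HoxC, Hoxc5, Hoxc6 and Hoxc10 differed from the median of their neighbours by 0.11, -0.062 and -0.092. For Hoxc4 and Hoxc9 this difference was -0.51 and -0.39. In contrast, Hoxc11 lay 0.58 above them, Hoxc13 1.88 above and Hoxc12 2.96 above. After subtraction of the neighbours the HoxC median was 0.023 in place of -0.39, a median that includes Hoxc11, Hoxc12 and Hoxc13. Of the 8 HoxC genes past the filter, 4 lay below their neighbours, Hoxc4 and Hoxc9 by the most. A shared lower level of the region and a lower level of the HoxC genes themselves cannot be told apart for Hoxc5, Hoxc6 and Hoxc10.

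**Figure D2:**
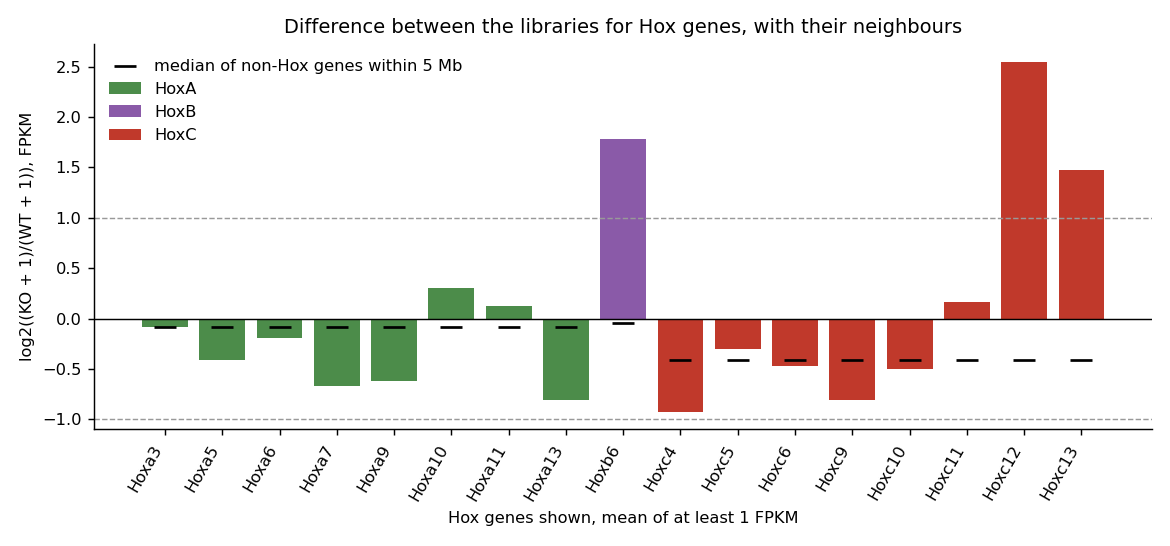
Log2((KO + 1)/(WT + 1)) of the FPKM values of 17 of the Hox genes whose mean reached 1 FPKM, as bars coloured by cluster, with a black mark for the median of the non-Hox genes within 5 Mb and dashed lines at a 2-fold difference. Hoxb6, Hoxc12 and Hoxc13 exceed the upper line and no bar reaches the lower one, and the marks of HoxC lie at about -0.41.

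HoxA had no gene beyond 2-fold on the scale with 1 added. Without the added 1, the ratio of WT to KO was 3.17 for Hoxa13. Of its 4 highest members in WT, Hoxa10 and Hoxa11 were somewhat higher in KO and Hoxa9 and Hoxa7 were lower. The cluster lies on chromosome 6, and its 47 neighbours had a median difference of -0.084. Hoxa11, which patterns the forearm and lower leg, was at 26.4 FPKM in WT and 28.8 FPKM in KO, a log2 difference of 0.12. Hoxa10, which acts in the thigh and lumbar region, was at 21.5 and 26.8 FPKM, a log2 difference of 0.31. Hoxa10 and Hoxa11 were the only members of the cluster with a higher value in KO. Hoxa9, a gene of posterior trunk identity and blood progenitors, was at 21.9 FPKM in WT and 13.9 FPKM in KO, a log2 difference of -0.62. Hoxa7 was at 16.5 and 10.01 FPKM, a log2 difference of -0.67. As a result, Hoxa9 stood just above Hoxa10 in WT and well below it in KO. Hoxa5, which acts in the lung and the neck region, was at 3.90 and 2.68 FPKM, a log2 difference of -0.41. Hoxa3, a gene of the throat region, was at 1.12 and 1.01 FPKM, and Hoxa6, which passed the filter through the WT library alone, at 1.27 and 0.987 FPKM. Their log2 differences were -0.079 and -0.19. Hoxa2 and Hoxa4, under the filter, were at most 0.462 FPKM. The span of Hoxa3 in RefSeq contains Hoxa4, Hoxa5 and Hoxa6, and that of Hoxb3 contains Hoxb4, so the split of reads among these genes is uncertain.

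At the 5′ ends of HoxA and HoxC the paralogs Hoxa13 and Hoxc13 had differences of opposite sign. Hoxa13, which patterns hands and feet, was at 1.68 FPKM in WT and 0.529 FPKM in KO, a log2 difference of -0.81 where its paralog Hoxc13 had 1.47. Hoxa13 passed the filter through the WT library alone, so a difference was built into its passing too. With a pseudocount of 0.1 the log2 difference of Hoxa13 was -1.50 and that of Hoxc4 was -1.04, so that 2 Hox genes were then more than 2-fold lower. Hoxb13 was at 0.016 FPKM in WT and 0.074 FPKM in KO, and Hoxd13 was listed at 0 in both.

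Genes numbered 1 to 9 of HoxA and HoxC had lower values in KO in each case, a grouping chosen after the values were seen. All 13 such genes were lower, including the 3 under the filter, where 49.3% of all genes past the filter were lower. The 10 past the filter ranged from -0.93 to -0.079 with a median of -0.44. Outside the grouping, Hoxc10 and Hoxa13 were lower too, at -0.50 and -0.81, whereas Hoxa10, Hoxa11, Hoxc11, Hoxc12 and Hoxc13 were higher. The sum of the 13 was 77.4 FPKM in WT and 47.02 FPKM in KO. After subtraction of the neighbours 8 of the 10 were lower, the exceptions being Hoxa3 and Hoxc5. These genes are neighbours and paralogs, not replicates. For comparison, the sum of numbers 10 and 11 was 47.9 and 55.6 FPKM in HoxA and 65.1 and 54.8 FPKM in HoxC.

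HoxB was listed at or near 0 in WT and had a run of low values in KO. The cluster lies on chromosome 11 from 96194316 to 96368254 (GRCm38.p6), and its 112 neighbours had a median difference of -0.045. Hoxb6, a gene of the lateral mesoderm and trunk, was listed at 0 in WT and at 2.45 FPKM in KO. Hoxb3, which acts in the hindbrain and throat, was listed at 0 in WT and at 1.22 FPKM in KO. Hoxb4, known for expanding blood stem cells, was listed at 0 in WT and at 0.718 FPKM in KO. Hoxb5 was at 0.023 FPKM in WT and 1.06 FPKM in KO. These 4 genes are adjacent, and all but Hoxb6 lay below the level of Hoxa6 in WT, 1.27 FPKM. On either side the cluster had values at or close to 0 in KO too, with Hoxb7 at 0.037 FPKM, Hoxb8 at 0.097 FPKM and Hoxb1, Hoxb2 and Hoxb9 listed at 0. In all, 29 of the 21829 genes were listed at 0 in WT and above 1 FPKM in KO, and 2 of them were Hox genes, Hoxb3 and Hoxb6. No fold is given for a gene listed at 0.

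HoxD lies on chromosome 2 from 74668225 to 74765142 (GRCm38.p6), and none of its 9 genes, from Hoxd1 to Hoxd13, had a value above 0 in either library. Genes beside it did have values. Of the listed flanks past the filter, 4 were lower and 3 higher in KO, among them Mtx2, a mitochondrial outer membrane gene next to the cluster, at 18.9 FPKM in WT and 15.3 FPKM in KO. Evx2, the homeobox gene at its 5′ end, was listed at 0 in both, and Evx1, at the 5′ end of HoxA, was at 0.015 FPKM in WT and listed at 0 in KO. The 43 neighbours of HoxD had a median difference of -0.11.

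**Figure D3:**
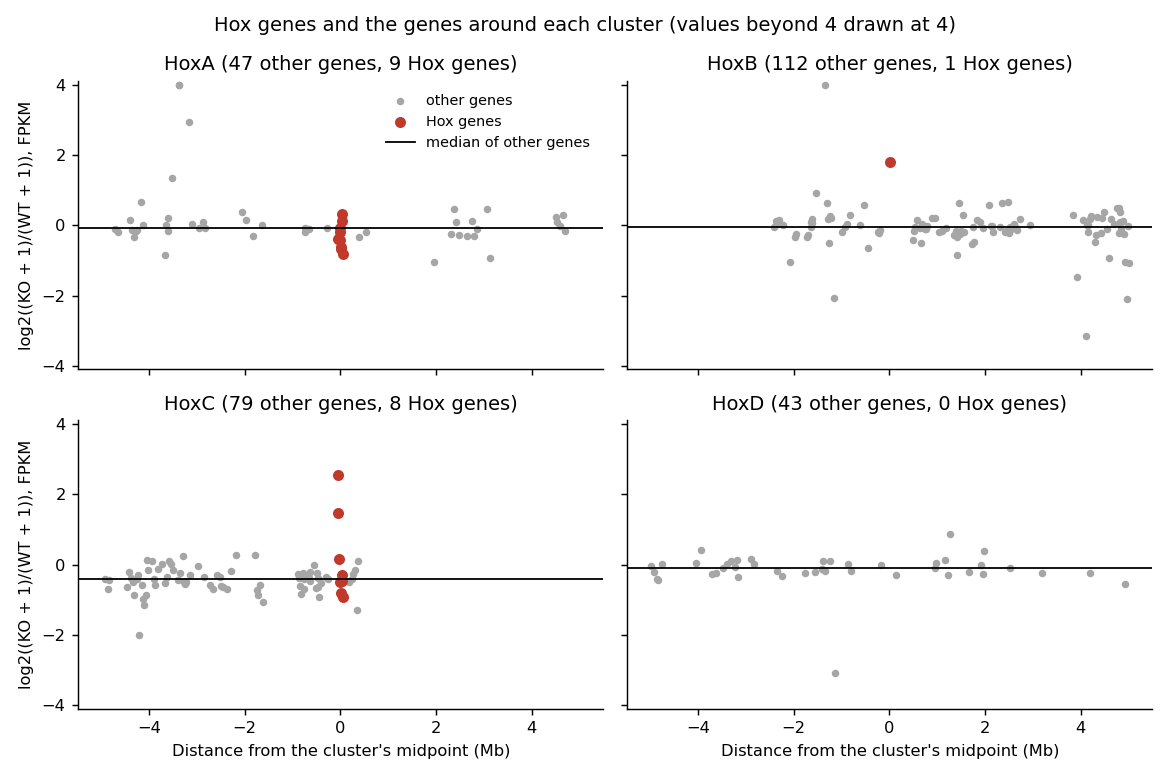
Log2((KO + 1)/(WT + 1)) of the FPKM values of genes whose mean reached 1 FPKM, against their distance in Mb from the midpoint of each cluster, with Hox genes in red, other genes in grey and a line at the median of the other genes. The line lies at -0.41 around HoxC, against -0.084, -0.045 and -0.11 around HoxA, HoxB and HoxD, and Hoxc12 and Hoxc13 stand above all other genes within 5 Mb of HoxC.

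Summed over clusters, the paralog groups did not all go the same way. Group 9 summed to 32.4 FPKM in WT and 19.5 FPKM in KO. Group 7, almost all of it Hoxa7, summed to 16.5 and 10.05 FPKM, and group 4 to 10.9 and 5.87 FPKM. Group 3 went the other way, from 1.12 to 2.23 FPKM, through Hoxb3. Groups 10 and 11 held the most in both libraries, group 10 with 64.7 and 56.98 FPKM and group 11 with 48.2 and 53.4 FPKM. Group 12 went from 0.159 to 5.79 FPKM, through Hoxc12 alone, and group 13 from 5.29 to 12.3 FPKM. Group 6 was level at 7.97 FPKM in both, where Hoxb6 in KO offset lower values of Hoxa6 and Hoxc6. The 5 highest genes held 68.9% of the Hox total in WT and 68.6% in KO.

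**Figure D4:**
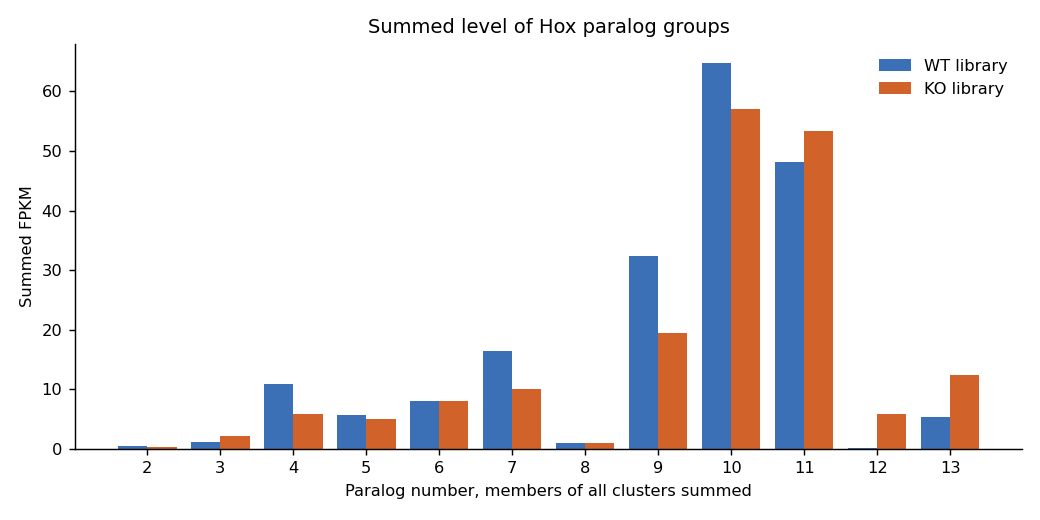
Summed FPKM of the Hox paralog groups 2 to 13, members of all clusters added, with a bar for the WT library and a bar for the KO library, 1 library each. Groups 10 and 11 are the tallest in both libraries, groups 4, 7 and 9 are lower in KO, and groups 3, 12 and 13 are higher in KO.

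The partners of Hox proteins were present in both libraries. TALE homeodomain proteins include the Pbx and Meis families, which bind DNA together with Hox proteins. Of 11 TALE genes, 9 passed the filter, with 0 more than 2-fold higher or lower and a median of 0.13. Among the most abundant, Pbx2 was at 15.9 FPKM in WT and 17.6 FPKM in KO, and Meis2 at 11.5 and 13.3 FPKM. Tgif1, a TALE gene of neither family whose difference was the list median, was at 33.9 and 37.2 FPKM. Cdx genes, which switch on central and posterior Hox genes in the embryo, were at most 0.095 FPKM, the value of Cdx1 in WT.

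Of 30 Polycomb genes, all of them past the filter, 2 were more than 2-fold lower and 0 higher, where 3.43% and 2.84% of all genes were, and the median was -0.12. The count of 2 was 0 with a pseudocount of 5 and 1 with the filter at 5 FPKM. The lower genes were Cbx7, which reads the H3K27me3 mark in the repressive complex PRC1, at 8.46 FPKM in WT and 2.38 FPKM in KO, and Ezh1, a methyltransferase that writes this mark, at 6.77 and 2.77 FPKM. Their log2 differences were -1.48 and -1.04. Bmi1, a core subunit of PRC1, was at 59.8 and 77.1 FPKM, and Rbbp7, a histone-binding subunit, at 182 and 162 FPKM. Of 12 Trithorax and H3K27 demethylase genes, 0 were past 2-fold in either direction, with a median of 0.029. Dpy30, a subunit shared by the H3K4 methyltransferases, was at 128 and 102 FPKM, and Men1, which brings them to Hox genes, at 33.9 and 38.4 FPKM. Architectural genes and retinoid receptors had 0 of 11 past 2-fold and a median of -0.13. The cohesin subunit Rad21 was at 145 and 132 FPKM, and Rarg, a receptor for retinoic acid, an inducer of 3′ Hox genes, at 127 and 99.6 FPKM. Rarg is also a neighbour of HoxC, where the median difference was -0.41. Of 20 noncoding RNAs of the Hox clusters searched for by symbol, such as Hotair, 0 had an entry, so they could not be analysed.

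**Figure D5:**
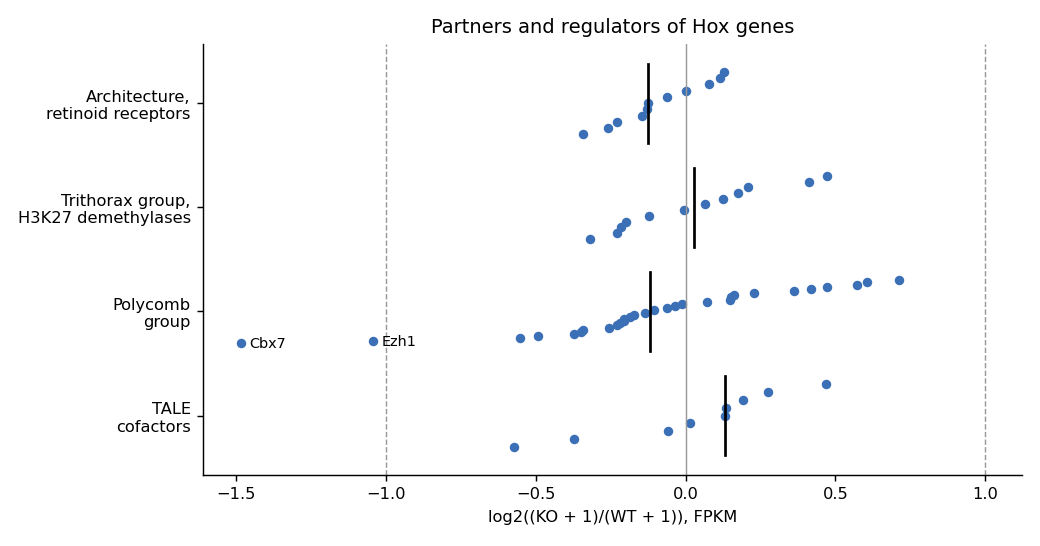
Log2((KO + 1)/(WT + 1)) of the FPKM values of the genes whose mean reached 1 FPKM in 4 lists of Hox partners and regulators, with 1 point per gene, a black bar at the median of each list and dashed lines at a 2-fold difference. Cbx7 and Ezh1 lie beyond the lower line and no gene lies beyond the upper one.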

How the data were processed

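The authors deposited 1 value per gene symbol for each of the 2 libraries, which they made from aligned reads with RSEM and which was read here as FPKM, although no unit is given. FPKM was inferred from totals that differ between libraries, although the paper's methods name TPM and expected counts. A TPM table with rows left out would hold the same values up to 1 factor per library. The added 1 and the filter would then act at another level, which matters most for weakly expressed genes. The methods describe poly-A RNA, TrimGalore, STAR and RSEM with GRCm39, whereas the submitters' processing notes name Trim Galore 0.6.6, STAR 2.7.9a, RSEM 1.3.3 and GRCm38. The labels and the methods also name different library kits and sequencers.

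Of repeated symbols (24 of 21853 rows), the entry with more signal was used. Differences were log2((KO + 1)/(WT + 1)), without rescaling, where the mean reached 1 FPKM. Neighbours were non-Hox genes past this filter within 5 Mb, with positions for 21264 symbols from the RefSeq gene table of GRCm38.p6, used because the processing notes name that build. The procedure was tested on simulated data with changes planted only in genes well expressed in WT. That does not check differences of genes at low values, such as Hoxb6 and Hoxc12. Hox genes with a mean of 1 FPKM or more were named, others where 1 library reached 0.5 FPKM or a statement needed them, and in other lists genes beyond 2-fold and abundant members. Individual values of 1 Hox gene and 1 list gene are not reported here. Members and lists were chosen with earlier results of these data known. Alternatives were pseudocounts of 0.1 and 5, dropping the filter or raising it to 5 FPKM, scaling by the median of ratios, subtraction of neighbours, and sums without the highest member. Depth per library is unknown, and with 1 library per group there was no test. Python 3.11.15, numpy 2.4.6, pandas 2.3.3 and matplotlib 3.10.9 were used.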

Additional observations from a re-analysis of the deposited data

How the results depend on the processing

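No paired analysis was possible because each group has 1 library, which also leaves no replicate to leave out. Counts that differed by over 1.5 times were treated as moved, as was a median or sum beyond 0.44 on the log2 scale, the interquartile range of the differences over all genes. The count of 3 Hox genes more than 2-fold higher was 1 with a pseudocount of 5, where Hoxc12 had 1.06, Hoxc13 0.96 and Hoxb6 0.57, and 1 with the filter raised to 5 FPKM, where 10 Hox genes were left. It was 5 without a filter, which adds Hoxb3 and Hoxb5. The count of 0 lower Hox genes was 2 with a pseudocount of 0.1. Over all genes, a pseudocount of 5 gave 102 higher and 176 lower, and the filter at 5 FPKM, which leaves fewer genes, gave 145 and 221. The HoxC median of -0.39 was 0.023 after subtraction of neighbours, and its summed log2 ratio of -0.15 was 0.083 without Hoxc10. The HoxB value, which rests on Hoxb6, was 4.67 with a pseudocount of 0.1, 0.57 with 5 and 0.11 over all 10 genes without a filter, against 1.78, and the log2 ratio of the HoxB sum was 6.36 without Hoxb6, against 7.18. The 2 lower Polycomb genes were 0 with a pseudocount of 5 and 1 with the filter at 5 FPKM, and the Trithorax median of 0.029 was -0.0053 with that filter. Of the 10 HoxA and HoxC genes numbered 1 to 9 past the filter, 5 were left with the filter at 5 FPKM, and all 5 were lower. Scaling by the median of ratios, with a factor of 1.004, moved no value beyond these limits. Without counts, low values such as those of HoxB carry an unknown counting error.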
